A study of Mus musculus with 12 samples.

Results

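Abcb4, the gene disrupted in the Mdr2-knockout mouse (Mdr2 is its earlier name), and 7 genes lying next to it on mouse chromosome 5 were followed in liver RNA. Members were all probe sets whose single gene symbol in the platform annotation, current or earlier, was Abcb4, Abcb1a, Crot, Tmem243, Dmtf1, Adam22, Sri or Steap4. This gave 13 probe sets of 8 genes, out of 22626 probe sets that are no array control. Of these 22626, 20380 have a single gene symbol. Abcb4, Crot, Tmem243 and Adam22 were read by 1 probe set each, Abcb1a, Sri and Steap4 by 2, and Dmtf1 by 3. A further 3 probe sets carry an older name of a member but the gene ID of another gene and were left out.

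The livers came from 12 male mice, 1 Affymetrix MOE430A array per mouse and 3 mice in each of 4 groups. KO_3M and KO_12M were Mdr2-knockout mice aged 3 and 12 months. Het_3M and Het_12M were heterozygous mice of the same ages, which served as controls and thus carry 1 disrupted copy of Abcb4 themselves. No wild-type mice were analysed here, and neither the strain nor the deleted part of the gene is given in the sources used here. The comparisons ask how the targeted gene and its neighbours differed between the genotypes in a mouse model of hepatocellular carcinoma, and whether they did so at both ages. For mouse 1 of Het_3M and mouse 1 of KO_3M, 1 label field gives 12 months where the title and the age field give 3, and the title was followed.

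Abcb4 is a floppase of the hepatocyte's bile canalicular membrane that moves phosphatidylcholine to the outer leaflet, from where bile salts carry it into bile. Phosphatidylcholine shields the bile ducts from bile salts, and mice without the transporter develop bile duct inflammation, fibrosis and later liver tumours. Its nearest relatives, Abcb1a and Abcb1b, are the mouse P-glycoproteins, which export drugs and other foreign compounds. Of the other neighbours, Crot transfers medium-chain acyl groups to carnitine in peroxisomes, Sri (sorcin) is a calcium-binding protein of the penta-EF-hand family and Steap4 is a metalloreductase for iron and copper. Adam22 is an ADAM family protein without protease activity that binds the secreted Lgi proteins. Dmtf1 is a transcription factor that binds D-type cyclins, and Tmem243 encodes a transmembrane protein.

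Along the chromosome the RefSeq annotation of GRCm38.p6 orders the genes as Steap4, Sri, Adam22, Abcb1a, Abcb4, Crot, Tmem243 and Dmtf1. From Steap4 to Dmtf1, both included, it places 25 genes, of which 12 are protein coding and 10 of those have a probe set. The pair with a probe set that are not members are Dbf4, between Adam22 and Abcb1a, and Abcb1b, between Abcb1a and Abcb4. The arrays name no genome build, so this annotation was used for the order of genes alone.

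The start regions of Abcb4 and Tmem243, which were both lower in the knockout, and of Abcb1a and Abcb1b, which were both higher, are shown so that they can be set side by side. Each runs from 250 bases before to 50 bases after the annotated start, 5′ to 3′ on the gene's strand, from RefSeq on GRCm38.p6. Capitals mark matches to the searched motifs: CCAAT (the CCAAT box), GGGCGG (the GC box), TATAAA (the TATA box) and TGANTCA (the AP-1 site), each on both strands. No overlap between motifs was found in these windows. The windows lie at chr5:8893471-8893770 (Abcb4), chr5:9100487-9100786 (Tmem243), chr5:8566841-8567140 (Abcb1a) and chr5:8797897-8798196 (Abcb1b), all on the plus strand.
Abcb4: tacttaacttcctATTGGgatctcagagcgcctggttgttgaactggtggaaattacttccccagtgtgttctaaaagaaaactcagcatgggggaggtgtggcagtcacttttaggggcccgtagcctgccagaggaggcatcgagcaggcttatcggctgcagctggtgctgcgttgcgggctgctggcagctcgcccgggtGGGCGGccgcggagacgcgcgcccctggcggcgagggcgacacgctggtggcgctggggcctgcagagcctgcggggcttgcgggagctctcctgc
Tmem243: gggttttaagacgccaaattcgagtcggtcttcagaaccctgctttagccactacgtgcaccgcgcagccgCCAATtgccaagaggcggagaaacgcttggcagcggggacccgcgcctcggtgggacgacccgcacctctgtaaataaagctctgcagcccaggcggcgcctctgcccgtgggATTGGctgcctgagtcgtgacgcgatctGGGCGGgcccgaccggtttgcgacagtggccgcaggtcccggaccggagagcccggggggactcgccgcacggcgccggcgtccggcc
Abcb1a: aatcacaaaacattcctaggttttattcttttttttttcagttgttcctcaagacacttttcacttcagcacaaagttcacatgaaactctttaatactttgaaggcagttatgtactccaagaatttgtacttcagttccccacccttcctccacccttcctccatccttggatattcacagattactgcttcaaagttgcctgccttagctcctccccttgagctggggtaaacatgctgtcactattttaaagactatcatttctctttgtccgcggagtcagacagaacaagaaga
Abcb1b: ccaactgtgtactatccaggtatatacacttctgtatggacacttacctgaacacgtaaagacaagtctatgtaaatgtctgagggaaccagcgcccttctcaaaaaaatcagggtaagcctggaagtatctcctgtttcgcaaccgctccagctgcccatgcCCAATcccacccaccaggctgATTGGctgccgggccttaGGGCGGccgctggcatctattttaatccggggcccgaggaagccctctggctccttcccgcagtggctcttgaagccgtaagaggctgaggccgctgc

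The window of Abcb4 held a CCAAT box on the minus strand from its base 14 and a GC box from base 205. That of Tmem243 held CCAAT boxes from bases 72 and 185 and a GC box from base 213, and that of Abcb1b CCAAT boxes from bases 164 and 185 and a GC box from base 203. In the window of Abcb1a none of these letters matched. Among 32851 promoter windows of the same length, 37.4% held a CCAAT box, 35.7% a GC box, 13.6% a TATA box and 7.81% an AP-1 site. The share of G and C was 64% for Abcb4, 68% for Tmem243, 55.0% for Abcb1b and 40.3% for Abcb1a, against a median of 52.7% over all windows. Of the other members, Crot had 1 CCAAT box and 2 GC boxes, Dmtf1 3 GC boxes, Steap4 1 TATA box and Sri 1 AP-1 site, and the window of Adam22 held no match. A match of letters is a description of the sequence and was not tied to the measured levels.

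Signals are MAS 5.0 values, a linear brightness of a probe set, so levels of different probe sets are not compared. A log2 fold change is the difference of group means of log2(signal + 16), knockout minus heterozygous, given with its limma standard error, and a probe set counted as called where its Benjamini-Hochberg adjusted p was under 0.05. The fit ran over 12977 probe sets that reached the median of their array on at least 3 of the 12 arrays. Array medians lay between 49.8 and 71.4. The array descriptions give a scan time for each array but name no session. Gaps of more than 30 minutes between scans were taken here to separate 3 sessions. Session 1 held the 3 Het_12M arrays and 1 of Het_3M, session 2 held 2 arrays each of Het_3M and KO_12M, and session 3 held the 3 KO_3M arrays and 1 of KO_12M. No session held both genotypes at 1 age, so a fit with the session as a block rests on comparisons across ages, and its values stand beside the results. The ratio of 3′ to 5′ signal for the actin control, a measure of RNA integrity, was 7.0 ± 1.6 in the 3 Het_3M arrays and 4.92 ± 1.59 in the 3 KO_3M arrays (SD), and at 12 months 3.64 ± 0.56 in heterozygous and 2.79 ± 0.44 in knockout mice. It moved with both genotype and age. The hepatocyte genes Alb, Ttr and Apoa1 were bright on every array, with signals of at least 4426.

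Of the 13 member probe sets, 9 passed the filter on dim signals, and 1 of these, of Abcb1a, passed through knockout arrays alone. The other 4 were taken from the same fit without the filter. Over all 13, in the fit without the filter, 4 were higher in the knockout, 2 were lower and 7 were not called at 3 months, and the counts at 12 months were the same. Across all 22626 probe sets 13.8% were called at 3 months (6.13% higher, 7.65% lower) and 5.28% at 12 months (3.44% higher, 1.83% lower). The 6 called at each age were the probe sets of Abcb4 and Tmem243, which were lower, and both of Abcb1a, 1 of Sri and 1 of Steap4, which were higher. For the mean of both ages 6 of 13 were called, beside 16.3% of all. The knockout and heterozygous signals did not overlap for 7 of 13 member probe sets at 3 months and 8 of 13 at 12 months, against 35.6% and 21.9% of all probe sets. Without Abcb4, whose loss is the design of the study, 5 of 12 were called at each age.

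**Figure D1:**
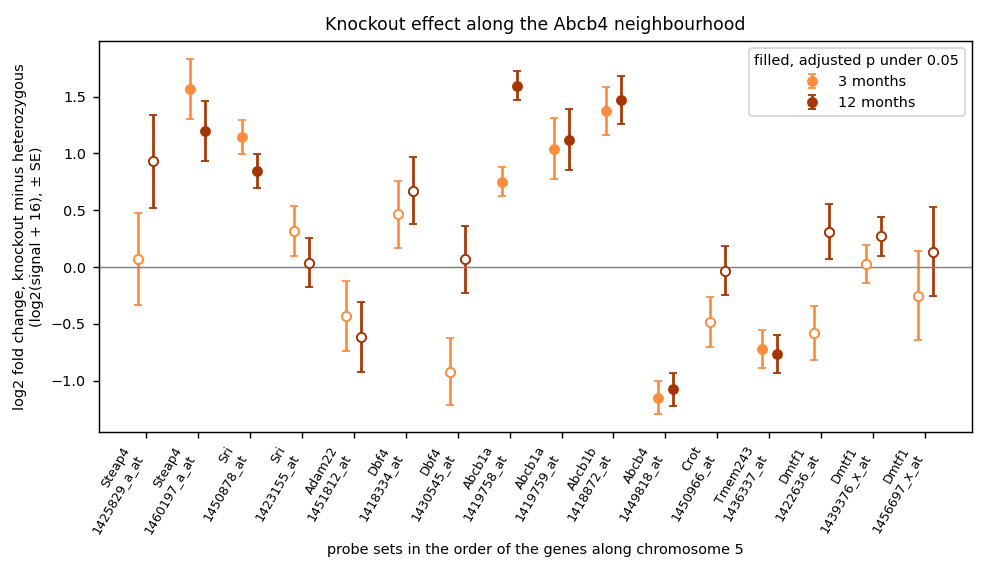
Log2 fold change (knockout minus heterozygous, log2(signal + 16), ± SE, 3 mice a group) of each probe set at 3 months (light) and 12 months (dark), in the order of the genes along chromosome 5, with filled points called. Abcb4 and Tmem243 lie below 0 at both ages with Crot between them near 0 at 12 months, while the called probe sets of Steap4, Sri, Abcb1a and Abcb1b lie above 0.

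Abcb4 itself (1449818_at) gave 728.7, 677.9 and 763.3 in Het_3M and 280.8, 295.5 and 385.7 in KO_3M. The 12-month livers gave 591.8, 601.3 and 675.4 in heterozygous and 293.2, 243.4 and 332.2 in knockout mice. All 6 knockout livers were below all 6 heterozygous livers. The knockout mean was 44.3% of the heterozygous mean at 3 months and 46.5% at 12 months. The fold change of Abcb4 was -1.15 ± 0.14 in the younger (adjusted p = 6.41e-05) and -1.07 ± 0.14 in the older mice (adjusted p = 0.000167). The remaining signal cannot be read as remaining transporter RNA, because where the probes lie relative to the deleted part is not known. With the session as a block the values were -1.44 (adjusted p = 0.0143) and -1.15 (adjusted p = 0.0743), so the call at 12 months was lost. In bulk tissue fewer hepatocytes and less RNA per hepatocyte cannot be told apart. Beside these values, the summed signal of 14 hepatocyte marker probe sets in the knockout was 95.6% of the heterozygous mean at 3 months, with overlapping groups, and 79.0% at 12 months, with separate groups.

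Tmem243, which lies beyond Crot from Abcb4, was the neighbour whose signals lay lower in the knockout at both ages. Its probe set (1436337_at) gave 231.7, 224.1 and 236.3 in Het_3M and 116.8, 114.0 and 179.9 in KO_3M. At 12 months the heterozygous mice gave 198.0, 199.4 and 223.5 and the knockout mice 96.1, 120.0 and 131.5. The genotypes did not overlap at either age, and the highest knockout liver, KO_3M mouse 3, came closest to the controls. The knockout means were 59.3% and 56.0% of the heterozygous means. Tmem243 fell by 0.72 ± 0.17 in the younger (adjusted p = 0.00700) and by 0.77 ± 0.17 in the older mice (adjusted p = 0.00756). With the session as a block it read -0.97 (adjusted p = 0.109) and -0.84 (adjusted p = 0.309) and was not called. The 3-month call was also lost with the actin ratio as a covariate (-0.64, adjusted p = 0.0517) and without both arrays of conflicting age label (-0.63, adjusted p = 0.0677).

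In all 4 groups the animal numbered 3 had the highest Abcb4 signal of its group, and mouse 3 also had the highest Tmem243 signal in all 4. Among the other tested probe sets, 134 of 12976 (1.03%) had their highest signal in mouse 3 of every group. Of the members, Tmem243 and the Dmtf1 probe set that passed the filter, whose gene overlaps the end of Tmem243 on the opposite strand, were among them. By the labels, mouse numbers only name an animal within its group.

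**Figure D2:**
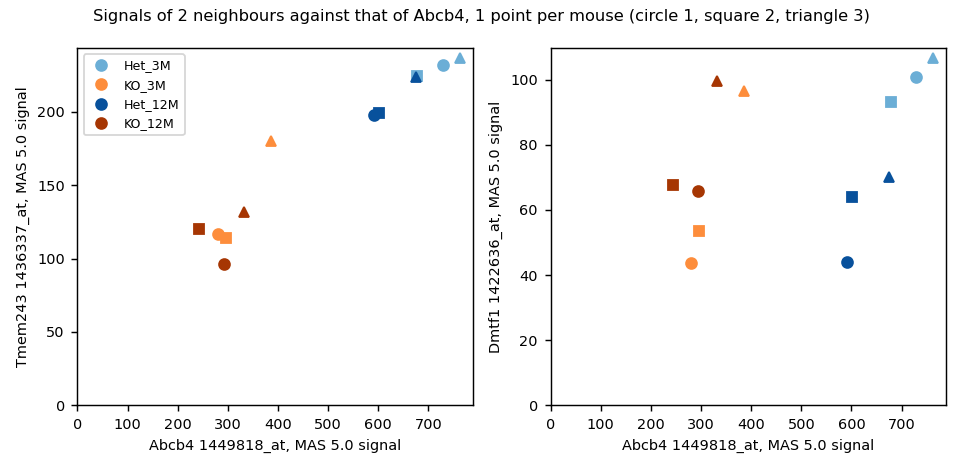
MAS 5.0 signals of Tmem243 (left) and of Dmtf1 1422636_at (right) against that of Abcb4, 1 point per mouse, with colours for the groups and symbols for the mouse number. For Tmem243 the 6 knockout livers (96.1 to 179.9) lie apart from the 6 heterozygous ones (198.0 to 236.3), whereas for Dmtf1 the genotypes overlap at both ages.

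The P-glycoprotein genes on the other side of Abcb4 moved the opposite way. The Abcb1a probe set that passed the filter (1419759_at) gave 20.0, 25.6 and 12.8 in Het_3M and 55.1, 51.6 and 62.0 in KO_3M. At 12 months it gave 23.1, 38.2 and 18.1 in heterozygous and 75.2, 63.2 and 87.2 in knockout mice. Every knockout liver exceeded every heterozygous liver. On this probe set Abcb1a rose by 1.04 ± 0.27 in the younger (adjusted p = 0.0119) and by 1.12 ± 0.27 in the older mice (adjusted p = 0.0130). It passed the filter through knockout arrays alone, 5 of them, and in the fit without the filter the adjusted p was 0.0123 and 0.0145. Neither call held with the session as a block (0.78, adjusted p = 0.396, and 1.08, adjusted p = 0.445). The call at 3 months was lost without both arrays of conflicting age label (1.07, adjusted p = 0.0594). At 12 months it was lost without Het_12M mouse 3 (0.98, adjusted p = 0.0532), without KO_12M mouse 3 (1.03, adjusted p = 0.0524) and without both arrays of the other fluidics protocol (1.03, adjusted p = 0.0737).

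The second Abcb1a probe set (1419758_at) was dim and did not pass the filter. It gave 1.5, 2.0 and 1.5 in Het_3M and 13.6, 14.0 and 13.5 in KO_3M. In the older mice it gave 2.4, 1.2 and 1.1 in heterozygous and 37.6, 36.9 and 36.7 in knockout mice. All 6 heterozygous signals lay below the 10th percentile of their array, and the knockout signals within an age lay close together. It rose by 0.75 ± 0.13 in the younger (adjusted p = 0.00198) and by 1.59 ± 0.13 in the older mice (adjusted p = 5.17e-06). The size depends on the added offset, from 0.24 to 2.47 at 3 months and from 0.62 to 3.92 at 12 months with offsets of 64 and 1. Blocking the session gave 0.76 (adjusted p = 0.0912) and 1.58 (adjusted p = 0.0127).

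Abcb1b, which lies between Abcb1a and Abcb4 and was not among the members, showed the same direction. Its only probe set (1418872_at), also below the filter, gave 3.4, 3.0 and 4.8 in Het_3M and 42.4, 26.5 and 37.4 in KO_3M. At 12 months the heterozygous livers gave 2.1, 1.5 and 1.4 and the knockout livers 42.2, 18.7 and 42.3. The genotypes did not overlap, and all 6 heterozygous signals again lay below the 10th percentile. Abcb1b rose by 1.37 ± 0.21 (adjusted p = 0.000926) and by 1.47 ± 0.21 (adjusted p = 0.000848), or 0.99 (adjusted p = 0.179) and 1.31 (adjusted p = 0.245) with the session as a block. With offsets of 64 and 1 the sizes ran from 0.55 to 2.94 and from 0.57 to 3.65. Abcb1a and Abcb1b are closely related copies, and whether their probes also bind the other's RNA was not tested.

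**Figure D3:**
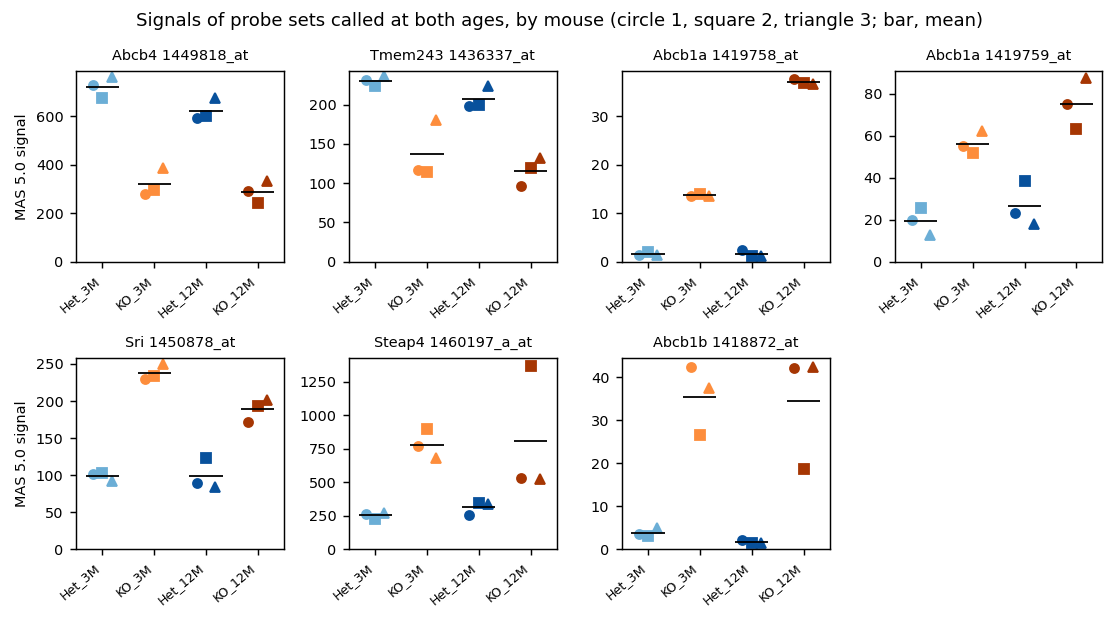
MAS 5.0 signals by group of the 6 member probe sets called at both ages and of Abcb1b, 1 symbol per mouse (circle, square and triangle for mice 1, 2 and 3) with the group mean as a bar. The knockout signals lie below the heterozygous ones for Abcb4 and Tmem243 and above them for both probe sets of Abcb1a and for Sri, Steap4 and Abcb1b, with KO_12M mouse 2 (1371.3) far above its group for Steap4.

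Steap4, the outermost member on the side of Abcb1a, was higher in the knockout on 1 of its 2 probe sets. Its probe set that passed the filter (1460197_a_at) gave 265.4, 222.0 and 269.6 in Het_3M and 768.8, 895.8 and 680.4 in KO_3M. The older mice gave 253.3, 346.3 and 333.8 (heterozygous) and 530.2, 1371.3 and 526.8 (knockout). The genotypes were separate at both ages, and KO_12M mouse 2 stood far above the other knockout livers. The rise was 1.57 ± 0.27 at 3 months (adjusted p = 0.000785) and 1.20 ± 0.27 at 12 months (adjusted p = 0.00867). Blocking the session gave 2.29 (adjusted p = 0.0240) and 1.53 (adjusted p = 0.211). Without KO_12M mouse 2 the 12-month value was the lowest of the fits that leave out 1 array, 0.75, and it kept its call, while the call was lost without both arrays with a fluidics error (1.06, adjusted p = 0.0523).

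The other Steap4 probe set (1425829_a_at) did not pass the filter and read differently at 3 months. There it gave 15.9, 19.9 and 13.7 in heterozygous and 5.4, 49.8 and 12.1 in knockout mice, which overlapped (0.07 ± 0.41, adjusted p = 0.929). At 12 months the signals were 55.2, 15.9 and 36.9 in heterozygous and 58.1, 129.6 and 61.1 in knockout mice. They did not overlap, but the difference was not called (0.93 ± 0.41, adjusted p = 0.245). KO_12M mouse 2 was the highest on this probe set too.

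Sri, the neighbour of Steap4, was likewise called on 1 of 2 probe sets. The first (1450878_at) gave 101.8, 102.5 and 91.9 in Het_3M and 230.4, 234.3 and 249.9 in KO_3M. At 12 months it gave 89.6, 123.1 and 84.2 in heterozygous and 171.6, 193.8 and 201.7 in knockout mice. No heterozygous liver reached a knockout liver. The rise was 1.15 ± 0.15 at 3 months (adjusted p = 8.44e-05) and 0.85 ± 0.15 at 12 months (adjusted p = 0.00163). Blocking the session gave 1.04 (adjusted p = 0.0678) and 0.86 (adjusted p = 0.239), and neither was called.

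The other Sri probe set (1423155_at) gave 46.3, 35.8 and 41.1 in Het_3M and 51.7, 61.1 and 52.3 in KO_3M. In the older animals it gave 71.4, 62.3 and 84.3 in heterozygous and 75.3, 100 and 54.5 in knockout mice. The genotypes were separate at 3 months and overlapped at 12 months. Neither difference was called (0.32 ± 0.22, adjusted p = 0.318, and 0.04 ± 0.22, adjusted p = 0.942). The platform annotation cites the same transcript for both Sri probe sets, and which of them follows the transcript was not tested.

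Crot lies directly between Abcb4 and Tmem243, yet its probe set (1450966_at) overlapped between the genotypes at both ages. It gave 1931.0, 1289.6 and 2036.4 in Het_3M and 988.1, 1560.1 and 1190.8 in KO_3M. At 12 months the heterozygous livers gave 1693.4, 1401.6 and 1599.7 and the knockout livers 2137.1, 1418.1 and 1174.5. The fold changes of -0.48 ± 0.22 (adjusted p = 0.123) and -0.03 ± 0.22 (adjusted p = 0.956) were not called. At 3 months Crot was called without Het_3M mouse 2, the lowest control (-0.69, adjusted p = 0.0494), and with the actin ratio as a covariate (-0.92, adjusted p = 0.00449). Session-blocked values were 0.16 (adjusted p = 0.841) and 0.41 (adjusted p = 0.779).

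Dmtf1, at the far end beyond Tmem243, was read by 3 probe sets, of which 1 passed the filter (1422636_at). It gave 100.7, 93.0 and 106.5 in Het_3M and 43.6, 53.6 and 96.4 in KO_3M. In 12-month livers it gave 43.9, 63.9 and 70.2 in heterozygous and 65.8, 67.5 and 99.7 in knockout mice. Het_3M had the highest mean, KO_3M mouse 3 and KO_12M mouse 3 reached its range, and the genotypes overlapped at both ages. The fold change was -0.58 ± 0.24 at 3 months (adjusted p = 0.0956) and 0.31 ± 0.24 at 12 months (adjusted p = 0.485). Without KO_3M mouse 3 the 3-month difference was called (-0.85, adjusted p = 0.0212). The difference between the ages, 0.89 ± 0.34, was not called (adjusted p = 0.220). Session-blocked values were -1.06 (adjusted p = 0.189) and 0.16 (adjusted p = 0.941).

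The other Dmtf1 probe sets were dim. Signals of 1439376_x_at ran from 0.8 to 9.6, below the 10th percentile on 7 arrays. Those of 1456697_x_at ran from 9.8 to 92.1, with KO_12M mouse 3 as the highest. Neither was called at either age (0.03 and 0.27 for the first, -0.25 and 0.13 for the second), and the genotypes overlapped.

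Adam22 (1451812_at) gave 54.0, 68.6 and 71.5 in Het_3M and 70.1, 17.5 and 58.0 in KO_3M. Among 12-month livers it gave 86.9, 76.8 and 63.2 in heterozygous and 29.9, 58.9 and 45.4 in knockout mice. The genotypes overlapped at 3 months and were separate, with the knockout lower, at 12 months. Neither fold change was called (-0.43 ± 0.31, adjusted p = 0.344, and -0.61 ± 0.31, adjusted p = 0.250). The 3-month value rests on KO_3M mouse 2, the lowest liver, without which it was -0.009 (adjusted p = 0.987). Both probe sets of Dbf4, which activates the Cdc7 kinase at the start of DNA replication and lies next to Adam22, never reached the median of their array. Neither was called at either age: 1418334_at read 0.46 (adjusted p = 0.322) and 0.67 (adjusted p = 0.251), and 1430545_at read -0.92 (adjusted p = 0.0529) and 0.07 (adjusted p = 0.945). At 3 months 1430545_at was called in 7 alternatives, among them the fits without KO_3M mouse 2 (-1.17, adjusted p = 0.0340), without Het_12M mouse 1 (adjusted p = 0.0210) and without Het_12M mouse 2 (adjusted p = 0.0449), and 1418334_at was called without Het_3M mouse 3 (0.85, adjusted p = 0.0437).

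**Figure D4:**
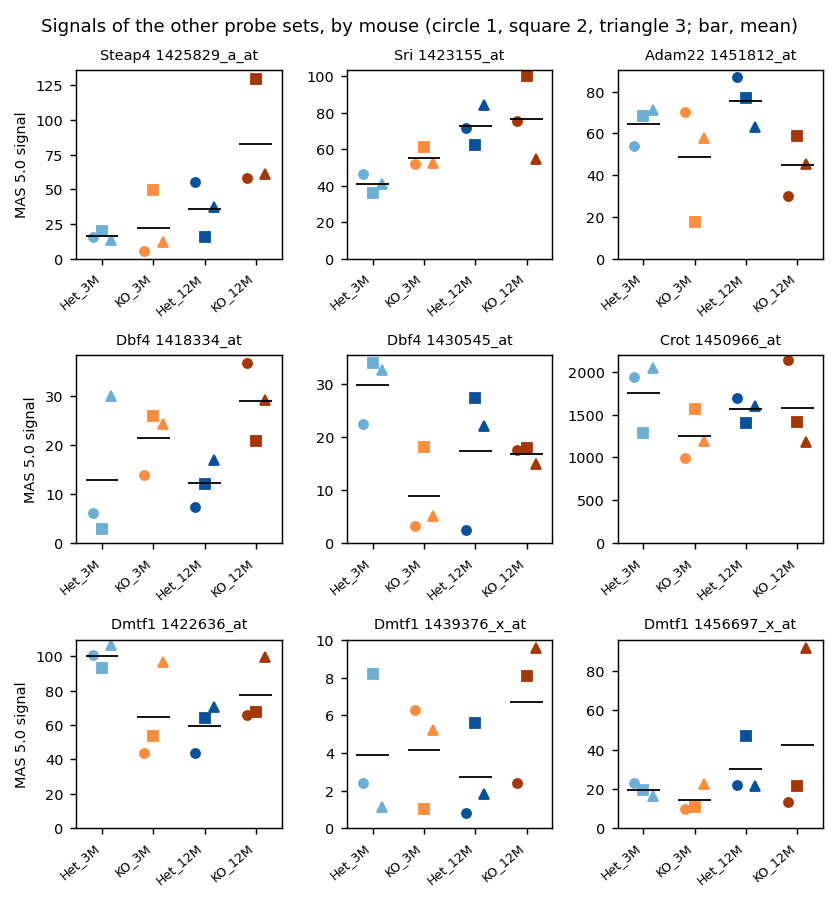
MAS 5.0 signals by group of the 7 member probe sets that were not called and of both probe sets of Dbf4, 1 symbol per mouse with the group mean as a bar. Heterozygous and knockout signals overlap at 1 or both ages in every panel, as for Crot, where KO_12M ranges from 1174.5 to 2137.1.

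The ages were also compared within each genotype. In heterozygous mice limma called 0 of 13 between 3 and 12 months, beside 0.270% of all probe sets, and 2 of 13 had an unadjusted p under 0.05. These were Dmtf1 1422636_at with an unadjusted p of 0.0169 (-0.64, adjusted p = 0.190) and Sri 1423155_at with one of 0.0105 (0.63, adjusted p = 0.158). In knockout mice 1 of 13 was called, beside 4.36% of all, the dim Abcb1a probe set 1419758_at, which rose by 0.84 ± 0.13 (adjusted p = 0.00578) from 3 to 12 months. The other Abcb1a probe set read 0.33 ± 0.27 (adjusted p = 0.445) in the same comparison. Steap4 1425829_a_at, which did not pass the filter, read 1.46 ± 0.41 there. Its unadjusted limma p was 0.00281, and it was not called (adjusted p = 0.0552). For the difference between the genotype effects at the ages, 0 of 13 were called, beside 0.190% of all probe sets without the filter and 0.717% of those that passed it. At an unadjusted p under 0.05 there were 2, Abcb1a 1419758_at (0.84 ± 0.18, adjusted p = 0.0732) and Dmtf1 1422636_at. Abcb4 differed between the ages by 0.07 ± 0.20 (adjusted p = 0.902) and Tmem243 by -0.05 ± 0.24 (adjusted p = 0.949), so for neither was a difference detected with 3 mice a group.

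Within sessions the only genotype contrast was across ages, KO_12M minus Het_3M in session 2. There Abcb4 differed by -1.38, Tmem243 by -1.0, Steap4 1460197_a_at by 1.74, Sri 1450878_at by 0.81, Abcb1a 1419759_at by 1.29 and 1419758_at by 1.58 on the log2 scale. Each had the sign of the genotype comparison. These probe sets were picked as called in a fit that includes the session 2 arrays, so the signs are no separate support. Of the members not called, Adam22 (-0.56) kept its sign and Crot (0.10) did not. In session 1, which compares Het_12M with Het_3M, the called probe sets lay between -0.23 (Abcb4) and 0.21 (Abcb1a 1419759_at). In session 3, KO_12M minus KO_3M, they lay between -0.55 (Steap4) and 0.82 (Abcb1a 1419758_at). The part of the session in these differences was not tested beyond the blocked fit, in which 3.21% of probe sets were called at 3 months and 0.701% at 12 months.

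Genes whose profile over the 12 arrays was most like that of Abcb4 were ranked by the root mean square difference of log2 signals centred per probe set, over 8227 genes. The first 5 were Fgf1, a fibroblast growth factor (0.147), the kinase gene Camk1d (0.154), Eci2, an enoyl-CoA isomerase of fatty acid oxidation (0.165), Acat1, the mitochondrial acetoacetyl-CoA thiolase (0.183), and Il1rap, the co-receptor of the interleukin-1 receptor (0.195). Mean signals of Fgf1 were 255 and 112 at 3 months and 247 and 104 at 12 months in heterozygous and knockout mice. Tmem243 ranked 7 (0.222). Of the other members, Adam22 ranked 1731, Crot 2675, Dmtf1 2849, Sri 6969, Abcb1a 8005 and Steap4 8140. Each gene was ranked by its tested probe set nearest to Abcb4, which for Sri was 1423155_at, not the called 1450878_at. The ranking uses the same arrays as the comparisons and is a description. With the larger offset 4 of the 5 stayed among the first 5 and Tmem243 ranked 15.

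Over the rest of chromosome 5, members left out, 142 of 755 tested probe sets of the chromosome (18.8%) were called at 3 months and 46 of 755 (6.09%) at 12 months. Among all 12977 tested probe sets 21.2% were called at 3 months (9.55% higher, 11.7% lower) and 9.47% at 12 months (5.86% higher, 3.61% lower). These shares are descriptions, as neighbouring probe sets are not independent.

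The relatives and partners of the members were taken as lists and read beside the median of all tested probe sets, -0.06 at 3 months and -0.005 at 12 months. Other ABC transporters were read by 39 tested probe sets of 26 genes. At 3 months 3 rose and 6 fell (median -0.23) and at 12 months 1 rose and 5 fell (median -0.15). Without the filter the list had 62 probe sets, of which 3 rose and 6 fell at 3 months (median -0.21). At 12 months 4 of the 62 rose and 5 fell (median -0.001), and Abcb1b was among those that rose at each age. Across all probe sets without the filter 13.8% were called at 3 months and 5.28% at 12 months. Abcb11, the bile salt export pump of the same membrane as Abcb4, read 0.09 ± 0.13 at 3 months (adjusted p = 0.685) and rose by 0.65 ± 0.13 at 12 months (adjusted p = 0.00426). Abcc8, the sulfonylurea receptor, fell by 0.69 ± 0.15 (adjusted p = 0.00514) and by 0.72 ± 0.15 (adjusted p = 0.00640). The Abcf1 probe set 1426921_at rose by 1.35 ± 0.20 at 3 months and fell by 0.89 ± 0.20 at 12 months, but its 3 other probe sets read from -0.95 to 0.98 at 3 months, so the gene's direction is not settled.

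**Figure D5:**
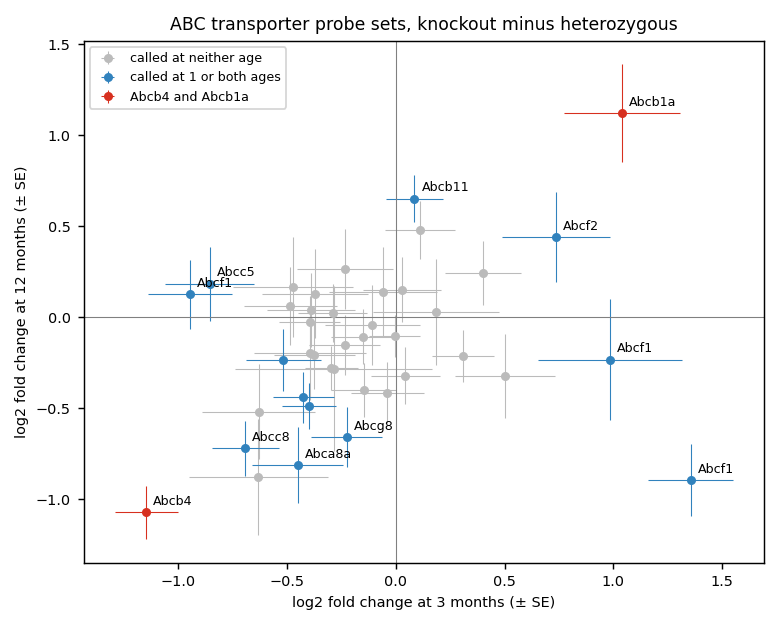
Log2 fold change at 12 months against that at 3 months (knockout minus heterozygous, ± SE) for the tested ABC transporter probe sets, with Abcb4 and Abcb1a in red and other probe sets called at 1 or both ages in blue. Abcb4 (-1.15, -1.07) lies in the lower left corner and Abcb1a (1.04, 1.12) in the upper right, and most other members of the family lie nearer to 0.

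Among partners of bile secretion, 14 tested probe sets, 0 rose and 2 fell at 3 months (median -0.27) and 1 rose and 3 fell at 12 months (median -0.16). Without the filter 1 of 16 rose and 2 fell at 3 months, and 2 rose and 3 fell at 12 months. Abcb1b, which is on this list, was among those that rose. Slc10a1, which takes bile salts up from the blood, fell by 0.56 ± 0.13 (adjusted p = 0.00652) and by 0.87 ± 0.13 (adjusted p = 0.000405). Abcg8, a subunit of the canalicular sterol exporter, read -0.22 ± 0.16 (adjusted p = 0.345) and fell by 0.66 ± 0.16 at 12 months (adjusted p = 0.0159), a call lost without Het_12M mouse 3 or KO_12M mouse 2. Genes that supply phosphatidylcholine, 24 probe sets, rose in 4 and fell in 5 at 3 months (median -0.05), and rose in 2 and fell in 1 at 12 months (median -0.16). Lpin1, a phosphatidate phosphatase, rose by 1.45 ± 0.16 at 3 months (adjusted p = 2.47e-05), and Chpt1, a cholinephosphotransferase, fell by 0.97 ± 0.16 (adjusted p = 0.000630). The choline kinase Chka read -0.72 ± 0.27 at 3 months (adjusted p = 0.0706) and rose by 1.16 ± 0.27 at 12 months (adjusted p = 0.0120).

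The carnitine shuttle and peroxisomal oxidation genes around Crot, 20 probe sets, had 0 higher and 7 lower at 3 months (median -0.32) and 0 higher and 2 lower at 12 months (median -0.21). The thiolase Acaa1a fell by 1.36 ± 0.24 on 1456737_x_at (adjusted p = 0.000975) and the thioesterase Acot8 by 0.73 ± 0.15 (adjusted p = 0.00336) at 3 months. The other tested probe set of Acaa1a read -0.18 at 3 months. Slc25a20, the mitochondrial carnitine-acylcarnitine carrier, fell by 0.56 ± 0.17 (adjusted p = 0.0250) and by 0.68 ± 0.17 (adjusted p = 0.0150) at the respective ages. Its 3-month call was lost in 8 of 28 alternatives, 3 of which left out Het_3M mouse 2, Het_3M mouse 3 or KO_3M mouse 2, and its 12-month call in 5, 3 of which left out Het_12M mouse 2, Het_12M mouse 3 or KO_12M mouse 2. Of 11 probe sets of penta-EF-hand proteins and partners of Sri, 4 rose and 2 fell at 3 months (median 0.36) and 1 rose and 0 fell at 12 months (median 0.21). The calpain small subunit Capns1 rose by 0.90 ± 0.14 (adjusted p = 0.000506) and by 0.50 ± 0.14 (adjusted p = 0.0378), Pdcd6 by 0.87 ± 0.16 (adjusted p = 0.00144) and Pef1 by 0.57 ± 0.15 (adjusted p = 0.0159) at 3 months. The 12-month call of Capns1 was lost on leaving out any 1 of the 6 arrays of that age, and the call of Pef1 without Het_3M mouse 2, Het_3M mouse 3 or KO_3M mouse 2.

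Partners of Dmtf1, 12 probe sets, rose in 4 and fell in 0 at each age (medians 0.27 and 0.43). All 4 belonged to Ccnd1 or Cdkn1a. The cyclin Ccnd1 rose by 2.04 ± 0.17 (adjusted p = 8.88e-07) and 1.61 ± 0.17 (adjusted p = 1.60e-05), and the cell cycle inhibitor Cdkn1a by 1.46 ± 0.33 (adjusted p = 0.00611) and 2.07 ± 0.33 (adjusted p = 0.000818). The 2 other tested probe sets of Ccnd1 read from 1.25 to 1.79 at 3 months and from 1.04 to 1.33 at 12 months. In the Steap family list, 9 probe sets, 0 were called at 3 months (0 at an unadjusted p under 0.05) and 1 rose at 12 months, the transferrin receptor Tfrc (0.96 ± 0.22, adjusted p = 0.0102). Of 13 ADAM family probe sets, 2 fell at 3 months, Adam15 (-0.65 ± 0.15, adjusted p = 0.00732) and Adam1b (-0.94 ± 0.26, adjusted p = 0.0164), and 1 rose at 12 months, Adam10 (0.58 ± 0.16, adjusted p = 0.0275). The call of Adam10 was lost in 9 of 28 alternatives, 5 of which left out 1 array of that age (all but Het_12M mouse 3), and that of Adam1b without Het_3M mouse 3 or KO_3M mouse 3. Over all list genes named here, cell type markers included, 26 were called at 3 months and 19 at 12 months, and with the session as a block 9 and 2 of them were still called. Of the 45 calls of these genes over both ages, 11 held in every alternative run, 18 were lost with the session block alone, and 16 were lost in another alternative, 11 of them on leaving out 1 array. Among the list probe sets tested, 2 of the ADAM family, 2 of the partners of Dmtf1 and 1 of the stellate cell and fibroblast markers passed the filter through knockout arrays alone, besides the cholangiocyte markers.

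Markers of other liver cells moved with the genotype beside these results. Macrophage markers rose in 10 of 12 probe sets and fell in 1 at 3 months (median 1.02) and rose in 6 at 12 months (median 0.63). Their summed signal ran from 2729 to 2886 in Het_3M, 4866 to 8122 in KO_3M, 2897 to 3318 in Het_12M and 4736 to 5248 in KO_12M. The complement subunit genes C1qa, C1qc and C1qb led them, with C1qa at 2.03 ± 0.23 and 1.28 ± 0.23. Of 9 tested probe sets of stellate cell and fibroblast markers, 6 rose at 3 months (median 1.08) and 5 at 12 months (median 0.90). Without the filter 7 of 13 rose and 1 fell at 3 months (median 0.88), and 5 rose and 0 fell at 12 months (median 0.62). Summed signals of all 13 ran from 1182 to 1335, 2801 to 3445, 1121 to 1590 and 2517 to 2926 in the same order of groups. Col3a1, a fibrillar collagen, rose by 2.40 ± 0.20 and 1.33 ± 0.20, and the proteoglycans Lum and Dcn by 1.97 ± 0.22 and 1.00 ± 0.15 at 3 months.

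Cholangiocyte markers were mostly dim. Of their 7 probe sets on the array, 2 passed the filter, Krt23 and Epcam, both through knockout arrays alone. Without the filter 2 of the 7 were higher at 3 months, Krt23 (2.29, adjusted p = 0.000721) and Epcam (1.43, adjusted p = 0.0239), and 1 at 12 months, which was neither of these. The call of Epcam was lost without any 1 of 4 arrays, Het_3M mouse 1 or 3 and KO_3M mouse 2 or 3. Their summed signal ran from 75.5 to 103 in Het_3M, 301 to 321 in KO_3M, 87.0 to 109 in Het_12M and 149 to 479 in KO_12M. Of 14 hepatocyte marker probe sets 1 was called at each age (medians -0.10 and -0.35), of Hnf4a (-0.35 ± 0.12 and -0.39 ± 0.12), whose other probe sets read up to 0.22 at 12 months. This call was lost in 17 of 28 alternatives at 3 months, 8 of them leaving out 1 array, and in 20 at 12 months, 10 of them leaving out 1 array, and without the filter limma called 0 of 14 at either age (with it, 2 and 5 had an unadjusted p under 0.05). Their summed signal ran from 85713 to 94424 in Het_3M, 77378 to 94109 in KO_3M, 76993 to 85962 in Het_12M and 49159 to 75261 in KO_12M, so the groups did not overlap at 12 months. Of 5 endothelial probe sets 1 fell at 3 months, Lyve1, as did the only B cell probe set tested, Ms4a1 (-0.67 ± 0.22), whose call was lost in 13 of 27 alternatives, and none passed at 12 months. The 1 T and natural killer cell probe set and both neutrophil probe sets tested were not called at either age. No marker probe set on the array lay below the 10th percentile on all 12 arrays. The part of these cell types in the values of Abcb4, Tmem243, Abcb1a, Sri and Steap4 was not tested.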

How the data were processed

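Liver RNA of 12 mice, 3 per group, was hybridised to Affymetrix MOE430A arrays. Per the series design text, the authors obtained the signal intensity of each probe set with MAS 5.0, which the submitters' processing notes also name; the deposited intensity values are linear. The deposited value table holds them for 22690 probe sets, 64 of them controls. Trimmed means of the arrays (2 to 98%) lay between 149.63 and 149.98, so they were already scaled alike. Scaling settings and detection calls were not analysed here. MAS 5.0 signals at the dim end are noisy, and an offset of 16 added before log2 shrinks their fold changes.

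Gene symbols came from the platform annotation and were updated by gene ID to RefSeq (GRCm38.p6) for 20351 probe sets and kept for 29. The members and gene lists were chosen with earlier results of these data known. Named list genes were the up to 3 called members of smallest p per list. Named neighbours were those with a probe set between the outermost members.

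Arrays were scaled to a common trimmed mean. limma 3.58.1 (R 4.3.3; lmFit, eBayes with trend) fitted 4 group means over 12 arrays, with 8 residual degrees of freedom, to 12977 probe sets at or above their array's median on at least 3 of 12 arrays. Benjamini-Hochberg adjustment ran over all of them, and all adjusted p-values are from limma. Probe sets missing that filter were read from the same fit over 22626. Scan times more than 30 minutes apart separated sessions. Labels do not say more of the animals than their group and number. The p-values set a difference against the spread between mice within groups, pooled over the 4 groups. eBayes draws that spread towards its trend with intensity over all probe sets. The number of arrays limits the precision. The labels give no pairing of the groups by mouse number. On simulated data of 12977 probe sets the 3-month comparison recovered 28.0% of 1.5-fold, 72.0% of 2-fold and 100% of 4-fold changes. The 12-month comparison recovered 20.0%, 76.0% and 100%. The simulation changed 50 probe sets at each fold, a smaller share than was called in the data. It used normal noise and no session effect, so these rates need not hold for the reported fit. Alternatives were other offsets, scalings, filters, covariates and blocks, and each array left out. The array descriptions hold no measurement and served only to find sessions and fluidics records. Python 3.11.15, pandas 2.3.3, numpy 2.4.6 and matplotlib 3.10.9 served for tables and figures.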

Additional observations from a re-analysis of the deposited data

Results flagged for a closer look

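In 4 probe sets of the partner and marker lists the knockout effect differed between the ages by the interaction term of the limma fit (effect at 12 months minus effect at 3 months). Of all 12977 tested probe sets 93 (0.717%) had a called term. Among the 4, the largest was that of the Abcf1 probe set 1426921_at (-2.25, adjusted p = 0.00213), where every knockout mouse lay above the controls at 3 months and below them at 12 months. The 3 other probe sets of Abcf1 read from -0.95 to 0.98 at 3 months. The choline kinase Chka (1450264_a_at) differed by 1.88 (adjusted p = 0.0357), with every knockout mouse below the controls at 3 months and above them at 12 months. Lyve1 (1453128_at), a hyaluronan receptor of the sinusoidal endothelium, did so too (1.27, adjusted p = 0.0458). For Lpin1 (1426516_a_at), which was called at 3 months and not at 12, the term was -1.39 (adjusted p = 0.0163). With the session as a block the 3-month differences of Abcf1 (1.00, adjusted p = 0.147) and Lyve1 (-0.77, adjusted p = 0.258) were not called. Nor were the 12-month differences of Abcf1 (-1.21, adjusted p = 0.192) and Chka (1.49, adjusted p = 0.241), while Lpin1 kept its 3-month call. None of the 13 member probe sets had a called interaction term.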

How the results depend on the processing

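Of the 9 member probe sets that passed the filter, 5 were called at 3 months, 5 at 12 months and 5 for the mean of both ages. Of each 5, 1 was Abcb1a 1419759_at, which passed through knockout arrays alone and was also called without the filter. Among all tested probe sets 21.2% were called at 3 months and 9.47% at 12 months, and without the filter 16.3% for the mean. With the scan session as a block the member counts were 2, 0 and 2, beside 3.21%, 0.701% and 2.3% of all tested probe sets. The 12-month difference of Abcb4 was then -1.15 with an adjusted p of 0.0743. The 2 at 3 months were Abcb4 (-1.44) and Steap4 1460197_a_at (2.29). Without both arrays of conflicting age label 3 were called at 3 months. Between the ages in knockout mice 0 of 9 were called, 3 with each array scaled to a common median and 1 of 13 without the filter. Leaving out 1 array at a time gave 5 to 6 calls at 3 months, 4 to 5 at 12 months, 5 to 6 for the mean and 0 for both age comparisons and the interaction. Abcb4 moved from -1.28 to -1.06 at 3 months and from -1.17 to -0.96 at 12 months. Capns1 1426400_a_at at 12 months turned from 0.50 to -0.024 (adjusted p = 0.987) with the session as a block. The cause was not tested for any of these. With the mouse number as a replicate block 5, 5 and 5 were called and Abcb4 read -1.15 and -1.07. The 18 pairs of arrays that share a number correlated at a mean r of -0.02 (-0.23 to 0.18, 1 above 0.1) in their deviations from the group means. For the 36 pairs of different number the mean r was 0.01 (-0.17 to 0.15, 8 above 0.1). The labels name no link between animals of 1 number, and these correlations cannot show that there is none. Over the single probe sets named, 2285 values kept their direction and their side of the threshold under an alternative, 150 lost a call, 20 gained 1, 48 moved and 1 turned. The median of all tested probe sets was 0.11 at 3 months with median scaling against -0.06, and members are read relative to it. The fit of only the groups compared has no value for the mean and the interaction, which use all groups, and the stricter filter and 1 probe set per gene have none for dim probe sets. Leaving out both arrays with a fluidics error or both of the other fluidics protocol was chosen after seeing the data. Signals below the 10th percentile, as of Abcb1a 1419758_at and Abcb1b in heterozygous mice, leave the size of a fold change to the offset.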
